A study of Solanum pimpinellifolium with 72 samples.

Results

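RNAi-SlCLV3 and HC2 are transgenic tomato lines made in the Solanum pimpinellifolium accession LA1589, and they were compared with each other here through their 24 whole-mRNA libraries out of the 72 in the series. RNAi-SlCLV3 carries a hairpin built from a fragment of SlCLV3 and driven by the CaMV35S promoter, in the LA1589 background that serves as wild type (WT). HC2 carries a genomic copy of SlCLV3 with its wild-type promoter, placed in the near-isogenic line fas. The libraries were chosen by genotype and stage from the labels, with 4 replicates of each line at an early stage in which inflorescence meristems, floral meristems and buds at 2 days post floral initiation (dpi) were pooled, and in buds at 4dpi and at 6dpi. The WT and fas libraries of the same stages are given beside the 2 lines as their backgrounds.

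The lines therefore differ in more than the dose of SlCLV3. In fas an inversion has one breakpoint in the SlCLV3 promoter and the other at SlYABBY2b, and that segment came from cultivated tomato, so HC2 carries it and RNAi-SlCLV3 does not. The hairpin acts wherever the viral promoter is active, and its own transcripts, like those of the added copy, can count toward SlCLV3. Which independent transformants were sequenced is not given in the sources used here. The site of insertion, the segment and the level of SlCLV3 cannot be told apart as sources of a difference between the lines. The study's methods describe replicates as weekly collections, which may share plants, for WT and RNAi-SlCLV3 but not for HC2. The p values measure the spread between replicate libraries. That spread was pooled over all genotypes and stages of the series, not taken from RNAi-SlCLV3 and HC2 alone.

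In a shoot or floral meristem, stem cells secrete the CLAVATA3 peptide, which is perceived by receptor kinases and holds back WUSCHEL, the homeodomain factor that in turn maintains the stem cells. A weaker CLAVATA3 signal leaves more stem cells, and flowers then form more organs and, in tomato, fruits with more locules. SlCLE9 encodes the closest relative of the SlCLV3 peptide and is known in tomato to take over part of its function when SlCLV3 is lost.

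Levels are deposited RPKM values (reads per kilobase of gene and per M mapped reads), given as mean ± SD with n = 4. Differences are RNAi-SlCLV3 less HC2 on the log2(RPKM + 1) scale with their standard error (SE), a scale on which changes of genes with low RPKM are understated. A gene was called at a limma adjusted p (Benjamini-Hochberg over the 20577 tested genes) below 0.05. Reads in genes ran from 5.16 M to 58.6 M over the 24 libraries (median 18.4 M), and 2 libraries lay below 10 M. HC2 4dpi replicate 3, the deepest library, stood apart: its log2 values lay 0.373 (root mean square) from its group mean, against 0.161 to 0.246 in the other 23 libraries. It also held the ovule-associated genes INO at 1.04, TAGL11 at 1.58 and MBP3 at 2.67 RPKM, which were at 0 to 0.0649 in the other 3 HC2 libraries of 4dpi. Total call counts and 4dpi calls of named genes that rest on it are given with and without it. Counts by list, segment, chromosome and nearer background include it. Over the stages the summed level of 4 meristem genes (SlWUS, TKN2, AN and FA) went from 351 to 417 RPKM at the early stage to 216 to 256 at 6dpi in RNAi-SlCLV3, and from 379 to 420 to 165 to 217 in HC2. The sum of 5 organ genes (TAP3, TPI, TAG1, CRCa and CRCb) went the other way, from 12.9 to 22.2 up to 759 to 1101 RPKM in RNAi-SlCLV3, and from 16 to 71.5 up to 886 to 1206 in HC2. Within the first sum AN went against the order, with means of 22.8, 81.9 and 85 RPKM over the stages in RNAi-SlCLV3 and 55.7, 139 and 90.2 in HC2. The sum therefore does not stand for meristem tissue alone.

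SlCLV3 itself differed little between the lines in total transcript. At the early stage it was at 2.24, 4.6, 4.58 and 4.16 RPKM in the RNAi-SlCLV3 libraries and at 5.08, 5.48, 5.11 and 5.68 in HC2. Every RNAi-SlCLV3 library lay below every HC2 library, and the means were 3.89 ± 1.12 and 5.34 ± 0.293. The log2 difference was -0.41 (SE 0.23, 95% interval -0.87 to 0.06), which did not pass over all genes (limma adjusted p = 0.64). An exact two-sided permutation test that shuffled these 8 libraries of SlCLV3 freely gave p = 0.0286 (0.0857 adjusted over the 3 stages). No smaller value is possible with a free shuffle. The shuffle did not keep same-numbered libraries as pairs, although their residuals were correlated, and a permutation within pairs was not run. WT held 7.48 and fas 4.98 RPKM of SlCLV3 at that stage.

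At 4dpi SlCLV3 was at 1.6 ± 0.50 RPKM in RNAi-SlCLV3 and 1.08 ± 0.53 in HC2, with overlapping libraries (log2 difference 0.35, SE 0.23, 95% interval -0.12 to 0.82). At 6dpi the levels were 0.776 ± 0.647 and 0.722 ± 0.538 (log2 difference 0.03, SE 0.23, 95% interval -0.44 to 0.50). The early difference and that at 4dpi had opposite signs, and the test between these stages did not pass over all genes (difference 0.75, SE 0.33, limma adjusted p = 1). SlCLV3 rested on 1 to 149 reads per library, so that smaller differences were not detectable at this depth.

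SlWUS was at nearly the same level in both lines at the early stage and higher in RNAi-SlCLV3 afterwards. The early libraries held 28.1, 41.3, 26.9 and 36.7 RPKM in RNAi-SlCLV3 and 35.5, 38.9, 31.7 and 25.8 in HC2, a log2 difference of 0.01 (SE 0.26, limma adjusted p = 1). At 4dpi RNAi-SlCLV3 held 14.2, 16.6, 12.8 and 14.2 RPKM and HC2 4.5, 7.13, 3.91 and 4.83. At 6dpi the values were 8.89, 9.94, 10.2 and 8.47 against 1.76, 2.91, 3.89 and 1.49. The groups did not overlap at either of these stages. SlWUS was higher in RNAi-SlCLV3 by 1.36 at 4dpi (SE 0.26, limma adjusted p = 0.00032) and by 1.61 at 6dpi (SE 0.26, adjusted p = 1.9e-05). HC2 was close to WT in these buds (WT 4.78 and 2.92 RPKM on average) and fas lay somewhat above it (6.76 and 4.21). SlWUS was thus lower in older buds of both lines, and less so in the hairpin line. The line difference at 6dpi exceeded that at the early stage by 1.61 (SE 0.36, adjusted p = 0.028), a call lost without HC2 replicate 1, 2 or 4 or RNAi-SlCLV3 replicate 1, 3 or 4 (adjusted p up to 0.21).

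SlCLE9 differed between the lines at every stage, and already at the early one. RNAi-SlCLV3 held 24.3, 33.2, 19.5 and 34.9 RPKM early and HC2 2.15, 4.39, 3.38 and 2.88, a log2 difference of 2.78 (SE 0.23, limma adjusted p = 1.3e-14). At 4dpi the values of SlCLE9 were 15.1, 8.17, 6.81 and 9.25 against 0.449, 0.782, 1.42 and 0.851 (log2 difference 2.50, SE 0.23, adjusted p = 9.5e-13). All RNAi-SlCLV3 libraries were above all HC2 libraries of their stage. At 6dpi SlCLE9 was at 1.6 ± 1.21 RPKM in RNAi-SlCLV3, where replicate 1 stood at 3.4 and the others at 0.784 to 1.14, and at 0.176 ± 0.0717 in HC2 (log2 difference 1.05, SE 0.23, adjusted p = 0.004). That last call was lost without RNAi-SlCLV3 replicate 1 and with only the 24 libraries in the fit (adjusted p up to 0.077). WT held 2.38 and fas 10.6 RPKM at the early stage, so the mean of HC2 was nearer to WT than to the fas line it was made from. On the log2(RPKM + 1) scale the line difference was smaller at 6dpi than at the early stage (change -1.73, SE 0.32, adjusted p = 0.0023). With a pseudocount of 0.1, with only the 24 libraries or without RNAi-SlCLV3 replicate 4 that change passed no longer (adjusted p up to 1).

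**Figure D1:**
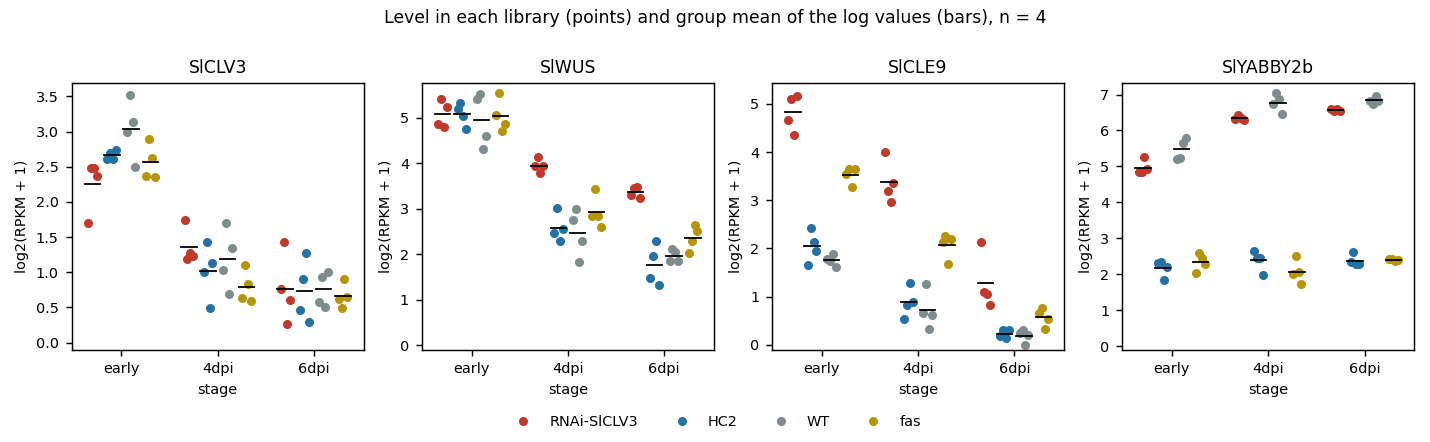
Levels of SlCLV3, SlWUS, SlCLE9 and SlYABBY2b as log2(RPKM + 1) on the vertical axis, by stage, in RNAi-SlCLV3, HC2, WT and fas. Points are single libraries and bars are means of the log values (n = 4). SlWUS is at one level in all 4 genotypes early and highest in RNAi-SlCLV3 at 4dpi and 6dpi, SlCLE9 is highest in RNAi-SlCLV3 at all stages, and SlYABBY2b is low in HC2 and fas, which share the inverted segment.

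The other 3 tested genes of the CLAVATA-WUSCHEL list passed at no stage. They were FAB, a tomato receptor kinase of the CLAVATA1 kind, FIN, an arabinosyltransferase that modifies the peptide, and CLV2, a receptor-like protein. For FAB the differences were 0.17, 0.21 and 0.01, for FIN 0.01, -0.07 and -0.21 and for CLV2 0.06, 0.17 and -0.01 over the 3 stages (SE 0.10 to 0.13). The list counts 6 genes, of which SlCLV3 was kept apart with the fas segment. Thus 1 of 5 was called early and 2 of 5 at 4dpi, at 6dpi and on average.

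Across all genes, 504 were called at the early stage (2.45% of 20577), 242 of them higher in RNAi-SlCLV3 (1.18%) and 262 higher in HC2 (1.27%). At 4dpi 523 were called (2.54%), and the split was uneven, with 404 higher in RNAi-SlCLV3 (1.96%) and 119 higher in HC2 (0.578%). At 6dpi 235 were called (1.14%), 145 higher in RNAi-SlCLV3 (0.705%) and 90 higher in HC2 (0.437%). The comparison averaged over the 3 stages, which holds 12 libraries of each line, called 1497 genes (7.28%), 774 higher in RNAi-SlCLV3 (3.76%) and 723 higher in HC2 (3.51%). Libraries of the same replicate number at different stages may come from the same collection, but the fit took them as independent. Their correlation across stages was not tested, so the averaged count may be too high. Without HC2 4dpi replicate 3 the 4dpi comparison called 364 genes, 283 and 81 in the same order, and the averaged one 1306, 704 and 602. The uneven split at 4dpi also moved with the scaling: 77.2% of the calls were higher in RNAi-SlCLV3 as reported, and 66.2% (367 against 187) after quantile normalization. The averaged split depended on the model and on single replicates. It was 1240 against 1473 with replicate number as a block, so that HC2 had the larger count, and 805 against 452 without RNAi-SlCLV3 replicate 1, 749 against 476 without HC2 replicate 2 and 636 against 481 without RNAi-SlCLV3 replicate 4. Single replicates also moved 1 direction by over 1.5 times at 4dpi (268 higher in RNAi-SlCLV3 without its replicate 2, 183 higher in HC2 without HC2 replicate 1) and at 6dpi (56 higher in HC2 without RNAi-SlCLV3 replicate 3, 58 without HC2 replicate 1). With the block, which the residuals bear out for the early and 6dpi comparisons, 892 genes were called early and 483 at 6dpi.

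Few genes changed their line difference between stages. The difference at 4dpi departed from the early one for 16 genes (0.0778%), that at 6dpi from the early one for 42 (0.204%) and that at 6dpi from that at 4dpi for 4 (0.0194%). Between 6dpi and early, 29 of the 42 differences moved toward RNAi-SlCLV3 and 13 toward HC2. That count rested on single replicates: it was 15 and 24 when replicate 1 or 4 of HC2 was left out, and 27, 19 and 27 when replicate 1, 3 or 4 of RNAi-SlCLV3 was. SlWUS, TKN2, AN and TM5 were among those that moved toward RNAi-SlCLV3.

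**Figure D2:**
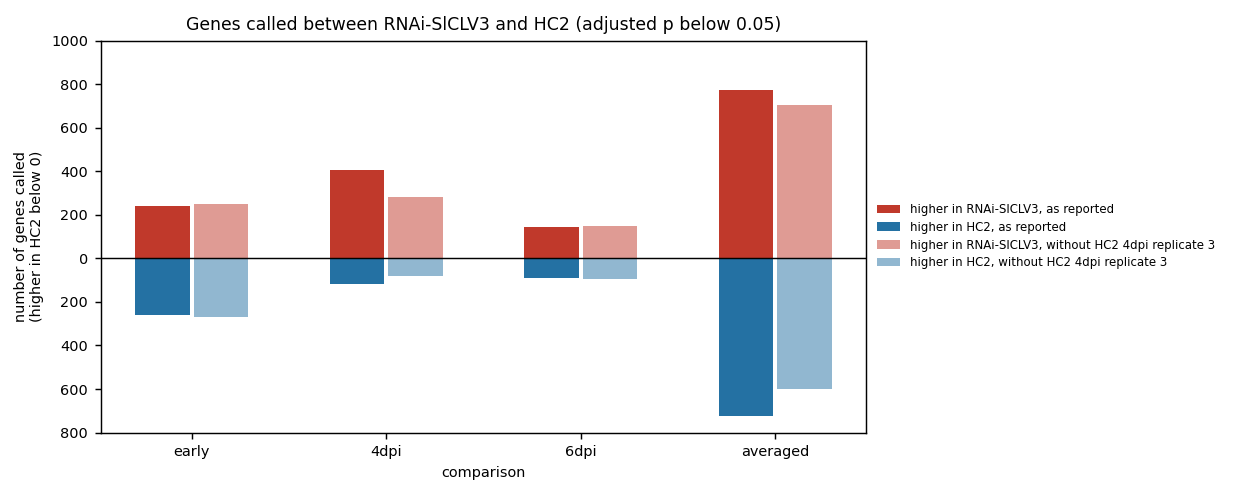
Number of genes called between RNAi-SlCLV3 and HC2 on the vertical axis, for the early, 4dpi, 6dpi and averaged comparisons. Bars above 0 count genes higher in RNAi-SlCLV3 and bars below 0 genes higher in HC2, in full colour as reported (early 242 and 262, 4dpi 404 and 119, 6dpi 145 and 90, averaged 774 and 723) and in pale colour without HC2 4dpi replicate 3.

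Among 11 genes of meristem maintenance and organ growth, all tested, TKN1 and TKN2 were higher in RNAi-SlCLV3 buds at 4dpi and 6dpi. They are class I KNOX genes, a family that keeps meristem cells undifferentiated. A further gene of that class, TKN4, passed at no stage, with differences of -0.09, -0.07 and -0.06 (SE 0.13). TKN2, the tomato relative of SHOOT MERISTEMLESS, was at 198 ± 23.7 RPKM in RNAi-SlCLV3 and 197 ± 14.5 in HC2 early. At 4dpi its libraries held 109, 122, 114 and 108 against 64.4, 78.8, 86.4 and 76.9 RPKM, and at 6dpi 78.2, 68.1, 91.9 and 70.1 against 35.5, 41.7, 50.9 and 37.9. No RNAi-SlCLV3 library overlapped with HC2 at these 2 stages. The log2 difference of TKN2 was 0.56 at 4dpi (SE 0.13, limma adjusted p = 0.0037) and 0.88 at 6dpi (SE 0.13, adjusted p = 1.6e-06). Its difference at 6dpi exceeded that at the early stage by 0.88 (SE 0.18, adjusted p = 0.0089), a call lost without HC2 replicate 1 or RNAi-SlCLV3 replicate 1 or 3 (adjusted p up to 0.18). WT stood at 74.7 and 48.1 RPKM at 4dpi and 6dpi and fas at 79.1 and 44.4, in the range of HC2.

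TKN1, another KNOX gene, followed the same order with smaller differences. It was at 32.4 ± 4.91 against 20.9 ± 2.81 RPKM at 4dpi (log2 difference 0.61, SE 0.10, limma adjusted p = 4.1e-05) and at 20.9 ± 2.39 against 15.7 ± 1.86 at 6dpi (0.40, SE 0.10, adjusted p = 0.034). The 6dpi call was lost without HC2 replicate 1 or 4 or RNAi-SlCLV3 replicate 1, 2 or 3 and in 2 further settings (adjusted p up to 0.21). AN3, whose relative in Arabidopsis is a coactivator of leaf cell proliferation, was higher in RNAi-SlCLV3 early (575 ± 129 against 368 ± 51.5 RPKM, log2 difference 0.62, SE 0.14, adjusted p = 0.0034) and at 6dpi (204 ± 25.3 against 129 ± 16.6, 0.66, SE 0.14, adjusted p = 0.0027). BOP, of the BLADE-ON-PETIOLE family that marks organ boundaries, was lower early at 7.16 ± 1.13 against 11.6 ± 2.04 RPKM (log2 difference -0.63, SE 0.17, adjusted p = 0.032), a call lost without HC2 replicate 2 or 4 or RNAi-SlCLV3 replicate 1 or 4 (adjusted p up to 0.20). Of this list 1 gene was higher and 1 lower early, 2 were higher at 4dpi and 3 at 6dpi, with list medians of -0.02, -0.09 and 0.18 beside -0.02, 0.02 and -0.03 over all genes. Calls in either direction made up 2.45%, 2.54% and 1.14% of all tested genes at these stages. On average TKN1, TKN2, ANT and AN3 were higher and BOP lower.

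Of 10 tested genes of inflorescence architecture and flower identity 3 were called early, AN and S lower and AGL20 higher in RNAi-SlCLV3. The early share over all tested genes was 2.45%. AN (ANANTHA), an F-box protein needed for floral meristem identity in tomato, was at 25.9, 14.7, 30.9 and 19.9 RPKM in RNAi-SlCLV3 and at 48.3, 58.9, 65.7 and 50.1 in HC2. The groups were apart early (log2 difference -1.29, SE 0.15, limma adjusted p = 6.1e-09) and at 4dpi, where AN was at 81.9 ± 7.68 against 139 ± 17.7 RPKM (-0.75, SE 0.15, adjusted p = 0.00093). At 6dpi AN was at 85 ± 9.59 and 90.2 ± 15 RPKM with overlapping libraries. Its line difference thus changed by 1.21 between early and 6dpi (SE 0.22, adjusted p = 0.0011), and this call held under all 16 alternatives. WT and fas held 50.8 and 52 RPKM of AN early, near HC2.

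S (COMPOUND INFLORESCENCE), a WOX homeobox gene expressed before floral identity is reached, was also lower in RNAi-SlCLV3 early. Its libraries held 12.8, 20.3, 10.3 and 14 RPKM against 24.9, 42.9, 29.5 and 41 in HC2, with no overlap (log2 difference -1.22, SE 0.23, limma adjusted p = 0.00043). The change of its line difference from early to 6dpi did not pass (1.08, SE 0.33, adjusted p = 0.30). AGL20, relative of the flowering gene SOC1 of Arabidopsis, was higher early at 32.8 ± 4.39 against 19.7 ± 3.19 RPKM (0.71, SE 0.15, adjusted p = 0.0017). SFT, the tomato florigen, was at 2.42 ± 0.738 and 4.87 ± 1.56 RPKM early, a difference of -0.77 (SE 0.25) that did not pass (adjusted p = 0.096). The list has 11 genes in all, and 1 tested member was lower at 4dpi and none called by limma at 6dpi (3 at an unadjusted p below 0.05), with medians of -0.09, -0.01 and -0.05. Medians over all genes were -0.02, 0.02 and -0.03.

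Of 16 tested floral MADS-box genes 6 were lower in RNAi-SlCLV3 at the early stage, 1 was higher and 9 did not pass. The early shares over all tested genes were 1.27% lower and 1.18% higher. TAP3, the tomato APETALA3 that specifies petals and stamens, was at 1.16, 0.662, 1.34 and 0.606 RPKM in RNAi-SlCLV3 and at 4.75, 15, 2.89 and 5.2 in HC2. Its partner TPI, a PISTILLATA gene, was at 2.07, 2.36, 3.59 and 2.34 against 9.94, 43.7, 7.61 and 14.6 RPKM. In both genes every RNAi-SlCLV3 library lay below every HC2 library, and HC2 replicate 2 was the highest. The log2 differences were -1.84 for TAP3 (SE 0.36, limma adjusted p = 0.00057) and -2.17 for TPI (SE 0.46, adjusted p = 0.0015), and both calls held under all 16 alternatives. Early means in WT and fas were 1.77 and 2.92 RPKM for TAP3 and 8.92 and 7.23 for TPI. These lay between the means of the lines, so HC2 stood above both backgrounds and RNAi-SlCLV3 below them.

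LePI, the other PISTILLATA gene, was at 0.295 ± 0.0933 against 2.39 ± 2.33 RPKM early (log2 difference -1.18, SE 0.30, limma adjusted p = 0.015), where HC2 replicate 2 held 5.85. The call of LePI was lost without HC2 replicate 2 or RNAi-SlCLV3 replicate 2 or 4 (adjusted p up to 0.30). TM5, the tomato SEPALLATA3 that organ identity proteins need as partner, was at 20.3 ± 8.25 against 50 ± 6.87 RPKM (-1.33, SE 0.22, adjusted p = 2.7e-05). Means of WT and fas again lay between the lines early, at 1.12 and 1.52 RPKM for LePI and 27.5 and 37.9 for TM5. By 6dpi TM5 stood at 203 ± 9.36 and 195 ± 17.7 RPKM. Its line difference had changed by 1.40 (SE 0.31, adjusted p = 0.024), a call lost without HC2 replicate 1, 2 or 4 or RNAi-SlCLV3 replicate 2 or 4 (adjusted p up to 0.17). The SEPALLATA genes TM29 (-0.67, SE 0.16, adjusted p = 0.0093) and EJ2 (-0.37, SE 0.10, adjusted p = 0.036) were lower early as well. TM29 did not pass without HC2 replicate 2 or 3 or RNAi-SlCLV3 replicate 2 or 4 (adjusted p up to 0.14), nor EJ2 without HC2 replicate 1, 2 or 3 or RNAi-SlCLV3 replicate 2 or 4 (up to 0.40). MBP20, of the FRUITFULL-like branch expressed before flower formation, was higher in RNAi-SlCLV3 by 0.70 early (SE 0.17, adjusted p = 0.0084) and 0.73 at 4dpi (SE 0.17, adjusted p = 0.0055). Those calls of MBP20 were lost without HC2 replicate 1 or RNAi-SlCLV3 replicate 2 early and without HC2 replicate 4 at 4dpi, and at both stages with only the 24 libraries (adjusted p up to 0.07 and 0.056).

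Of the 18 MADS-box genes 16 were tested, with an early median difference of -0.32. At 4dpi 1 was higher and at 6dpi limma called none (2 at an unadjusted p below 0.05), with medians of -0.03 and -0.06. Medians over all genes were -0.02, 0.02 and -0.03 at the 3 stages. The summed level of TAP3 and TM6, listed as anther markers, was also lower in RNAi-SlCLV3 early. It ran from 33.6 to 44.2 RPKM in RNAi-SlCLV3 and from 47.5 to 73.9 in HC2, against 39.4 to 48.3 in WT and 39.3 to 49.1 in fas. In WT early TM6 was at 42.3 and TAP3 at 1.77 RPKM on average, so the sum there was mostly TM6, which was not called. TAP3 specifies petals as well as stamens, so the sum does not stand for anthers alone. TAP3 belongs to both lists. The share of young buds in the pooled early tissue was not measured, and its part in these differences was not tested. In bulk tissue fewer cells of a type and less RNA per cell cannot be told apart.

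Of 7 tested genes of the YABBY family, which marks the outer side of forming organs, 4 were lower in RNAi-SlCLV3 early, CRCa was higher and 2 (CRCb and YABBY5b) did not pass, while SlYABBY2b is given with the fas segment. Beside these counts, 1.27% of all tested genes were lower early and 1.18% higher. YABBY1a was at 140, 100, 186 and 108 RPKM against 199, 271, 272 and 186 in HC2, where the highest RNAi-SlCLV3 and the lowest HC2 library lay at almost the same level (log2 difference -0.81, SE 0.19, limma adjusted p = 0.0055). At 4dpi YABBY1a was at 459 ± 18.5 against 743 ± 152 RPKM (-0.67, SE 0.19, adjusted p = 0.035), and without HC2 4dpi replicate 3 this call was lost (adjusted p = 0.25). The early call was lost without RNAi-SlCLV3 replicate 2 (adjusted p up to 0.060), and that at 4dpi also without HC2 replicate 2 or 3 or any single RNAi-SlCLV3 replicate (up to 0.26). YABBY1b (22 ± 6.86 against 37.5 ± 7.42 RPKM, -0.77, SE 0.17, adjusted p = 0.0032), YABBY5a (43.4 ± 9.30 against 62.5 ± 8.20, -0.53, SE 0.12, adjusted p = 0.0055) and SlYABBY2a (19.9 ± 3.73 against 33.9 ± 8.67, -0.72, SE 0.17, adjusted p = 0.0092) were lower early too, with overlapping libraries. Without RNAi-SlCLV3 replicate 2 none of these 3 passed (adjusted p up to 0.051, 0.092 and 0.10). YABBY5a was lost without HC2 replicate 3 as well, and SlYABBY2a without HC2 replicate 2 or 3 or RNAi-SlCLV3 replicate 4.

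CRCa, the tomato CRABS CLAW gene of carpels and nectaries, was higher in RNAi-SlCLV3 early and at 4dpi. Its early libraries held 7.48, 10.4, 10.5 and 15.7 RPKM in RNAi-SlCLV3 and 3.6, 3.9, 3.71 and 4.28 in HC2, and at 4dpi 4.05, 21.1, 6.74 and 13.2 against 3.6, 2.92, 3.37 and 3.68. The groups did not overlap at either stage, although RNAi-SlCLV3 was spread widely at 4dpi. The log2 difference was 1.26 at both stages (SE 0.30, limma adjusted p = 0.0062 each), and the calls were lost without RNAi-SlCLV3 replicate 4 early (adjusted p up to 0.058) and replicate 2 at 4dpi (up to 0.14). At 6dpi CRCa was at 119 ± 26.2 and 104 ± 25.5 RPKM, with overlapping libraries. The list of 9 YABBY genes had 7 tested outside the fas segment, of which 1 was higher and 4 lower early, 1 higher and 1 lower at 4dpi and none called by limma at 6dpi (1 at an unadjusted p below 0.05), with medians of -0.53, -0.26 and -0.23. Medians over all genes were -0.02, 0.02 and -0.03.

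Of 5 tested genes known for tomato fruit size and shape, OVATE was called early, SlKLUH at 4dpi and SlKLUH and TRM5 at 6dpi. SlKLUH, a cytochrome P450 of the CYP78A class that underlies a fruit weight locus, was at 177, 162, 140 and 170 RPKM in RNAi-SlCLV3 and 104, 122, 88.8 and 117 in HC2 at 4dpi, with no overlap (log2 difference 0.59, SE 0.09, limma adjusted p = 8.7e-06). At 6dpi SlKLUH was at 107 ± 5.79 against 76.2 ± 6.94 RPKM (0.48, SE 0.09, adjusted p = 0.00071). OVATE, a repressor of fruit elongation, was lower in RNAi-SlCLV3 early at 14.4 ± 1.94 against 25 ± 1.34 RPKM (-0.76, SE 0.17, adjusted p = 0.0029). TRM5, a microtubule-associated partner of OVATE proteins, was lower at 6dpi at 56.6 ± 3.6 against 74.9 ± 3.87 RPKM (-0.40, SE 0.09, adjusted p = 0.009), and just missed the threshold without RNAi-SlCLV3 replicate 1 (adjusted p = 0.050). Its line difference changed by -0.60 between early and 6dpi (SE 0.13, adjusted p = 0.016), a call lost without HC2 replicate 1 or 4 or RNAi-SlCLV3 replicate 1 or 3 (adjusted p up to 0.13). The list has 6 genes in all, with medians of -0.21, -0.18 and 0.02, beside -0.02, 0.02 and -0.03 over all genes. Shares called over all tested genes were 2.45%, 2.54% and 1.14% at these stages.

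ZWI, the tomato relative of the calmodulin-binding kinesin ZWICHEL, was lower in RNAi-SlCLV3 at every stage. It was at 18.5, 17.4, 16.8 and 18 RPKM against 25.9, 29.8, 33.7 and 28.7 early, a difference of -0.70 (SE 0.10, limma adjusted p = 1.6e-06) that stayed near that size at 4dpi (-0.62) and 6dpi (-0.66). No RNAi-SlCLV3 library overlapped with HC2 at any stage. Of 6 kinesin and cytokinesis genes ZWI alone was called. SlSWEET1b, a sugar transporter, was at 24.3, 24.7, 23.9 and 24.7 RPKM against 12.8, 12.7, 12.6 and 9.86 early (log2 difference 0.98, SE 0.13, adjusted p = 2.8e-07) and higher by 1.01 at 4dpi (SE 0.13, adjusted p = 1.1e-07).

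**Figure D3:**
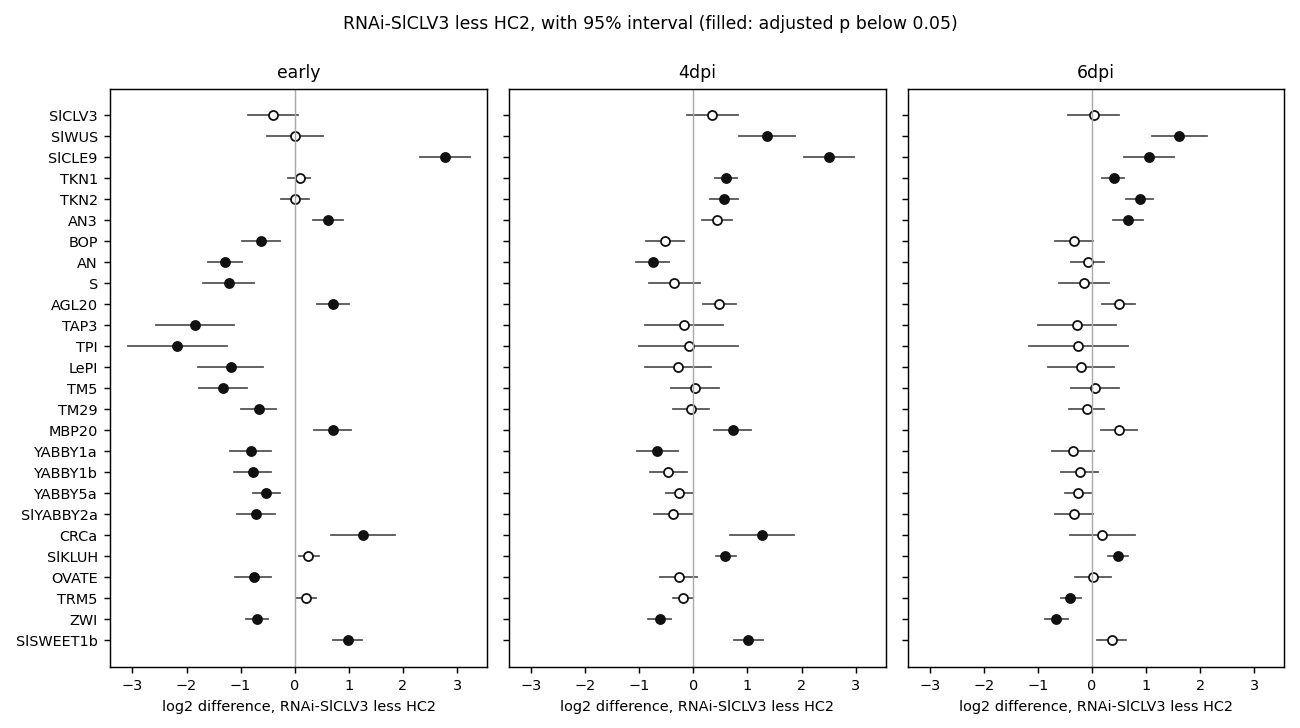
Log2 difference, RNAi-SlCLV3 less HC2, with its 95% interval on the horizontal axis for genes of the lists, in panels by stage. Filled points passed at an adjusted p below 0.05. AN, S, the MADS-box genes TAP3, TPI, LePI, TM5 and TM29 and 4 YABBY genes lie left of 0 at the early stage, while SlWUS, TKN1 and TKN2 lie right of 0 only at 4dpi and 6dpi, among the points that passed.

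The remaining lists held few calls. None of 5 sterol biosynthesis genes was called by limma at any stage or on average (2 had an unadjusted p below 0.05 early and 0 otherwise), with medians between -0.02 and 0.24. Of 6 light and clock genes none was called within a stage by limma (2 had an unadjusted p below 0.05 at each), and on average LHY and PORA were higher and GI lower in RNAi-SlCLV3. Of 9 stress and wound genes RBOHD, an NADPH oxidase, was called early at 2.13 ± 0.85 against 1.10 ± 0.515 RPKM (log2 difference 0.57, SE 0.16, adjusted p = 0.041). That call was lost without HC2 replicate 1 or 4 or RNAi-SlCLV3 replicate 2 or 4 and in 2 further settings (adjusted p up to 0.41). The 5 genotype-by-development genes of the study gave SlSWEET1b alone.

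Lists that the study drew up on other libraries were counted as well. Their members had already been selected there for a difference among WT, fas and other near-isogenic lines. They therefore do not stand for all tomato relatives of WUSCHEL targets. Of 41 relatives of genes induced by WUSCHEL in Arabidopsis, all tested, 3 were higher and 2 lower in RNAi-SlCLV3 early, 4 were higher at 4dpi and 5 at 6dpi, where SlWUS, TKN2 and a Dof gene were among them. Of 50 relatives of genes repressed by WUSCHEL 48 were tested, with 2 higher and 4 lower early and 1 lower, ZWI, at 4dpi and at 6dpi. The medians of both lists lay between -0.11 and 0.10, beside -0.02, 0.02 and -0.03 over all genes at the 3 stages. A further list had been chosen by the study for a difference between RNAi-SlCLV3 and WT in these same RNAi-SlCLV3 libraries, so its counts are no independent evidence of its direction. Of its 130 tested genes 25 were higher and 13 lower early, 31 and 8 at 4dpi, 16 and 5 at 6dpi and 48 and 24 on average. Over all tested genes 1.18% were higher and 1.27% lower in RNAi-SlCLV3 early, and 1.96% and 0.578% at 4dpi. The shares were 0.705% and 0.437% at 6dpi and 3.76% and 3.51% on average.

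Among the genes described in those lists, several enzymes stood out on the side of RNAi-SlCLV3. Solyc05g024160, a transketolase-family protein, was at 27.3 RPKM on average against 8.39 in HC2 early (log2 difference 1.59, SE 0.30, limma adjusted p = 0.00037) and at 30.5 against 6.48 at 4dpi (2.23, SE 0.30, adjusted p = 2.8e-07). WT and fas held 18.4 and 23.2 RPKM of it early, between the lines. Solyc11g011920, a glutamate decarboxylase, was at 14.6 to 17.5 RPKM in RNAi-SlCLV3 and 3.68 to 6.4 in HC2 early (1.48, SE 0.17, adjusted p = 4.7e-09), and differed by 1.57 at 4dpi (SE 0.17, adjusted p = 5.9e-10). Solyc11g072110, similar to oxygenases of the 2OG-Fe(II) kind, was at 10.7 to 19.4 against 1.78 to 4.48 RPKM early (1.91, SE 0.21, adjusted p = 1.1e-09). Its difference shrank to 0.99 at 4dpi and to 0.58 at 6dpi (adjusted p = 0.29). Its identifier lies a short way after those of the fas segment. Solyc06g054640, a DUF506 protein, was higher in RNAi-SlCLV3 at every stage, with 5.07 to 6.84 against 1.21 to 1.70 RPKM early, 6.07 to 8.88 against 1.67 to 3.13 at 4dpi and 1.60 to 3.13 against 0.0798 to 0.445 at 6dpi.

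Further genes of these lists were higher in RNAi-SlCLV3 at single stages. Solyc04g054740, a myo-inositol-1-phosphate synthase, was higher early (1.08, SE 0.24, limma adjusted p = 0.0026), Solyc12g044820, an ABC transporter of the MRP subfamily, at 4dpi (1.09, SE 0.17, adjusted p = 6.4e-06), and Solyc10g045100, of the phosphoglycerate mutase family, at 4dpi (0.99, SE 0.15, adjusted p = 6.5e-06) and 6dpi (0.74, SE 0.15, adjusted p = 0.0021). Solyc04g079570, a Dof zinc finger protein, reached 0.90 at 6dpi (SE 0.20, adjusted p = 0.0047, lost without HC2 replicate 4, adjusted p = 0.071). Solyc10g079950, a glycosyltransferase, reached 0.82 at 6dpi (SE 0.16, adjusted p = 0.00096). The aspartyl protease gene Solyc01g079980 was higher at all stages (0.78, 0.77 and 0.60, SE 0.12, the last one lost with only the 24 libraries in the fit), and here WT, at 18.7 to 19.6 RPKM on average, lay above both lines.

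On the side of HC2, Solyc02g022900, similar to a fatty acid hydroxylase of Arabidopsis, differed at every stage. RNAi-SlCLV3 held 9.44, 10.9, 12 and 8.25 RPKM and HC2 20.9, 28.2, 38.9 and 24.5 early, and the differences were -1.36, -1.25 and -1.55 (SE 0.19, limma adjusted p at most 3e-06). WT, at 12.8 to 15.7 RPKM on average, lay between the lines. Solyc02g024070, the relative of the leaf polarity gene PHABULOSA, was at 33.4 ± 3.04 against 49.5 ± 7.88 RPKM early, with differences of -0.55, -0.59 and -0.63 (SE 0.11) and no overlap at any stage. Solyc03g123430, of the AP2-like DNA-binding family, differed by -0.30, -0.44 and -0.42 (SE 0.08). Solyc09g007260, related to AP2, was lower early (-0.75, SE 0.15, adjusted p = 0.00066). So were Solyc12g005700, of a family needed for embryo vasculature in Arabidopsis (-1.06, SE 0.21, adjusted p = 0.00081), and the plantacyanin gene Solyc01g104400 (-1.01, SE 0.17, adjusted p = 5.8e-05). At 4dpi 5 calls of named genes in this direction were lost without HC2 4dpi replicate 3, that of YABBY1a (adjusted p = 0.25) and those of Solyc01g104400 (adjusted p = 0.099), Solyc09g007260 (0.18), the glycosyltransferase Solyc04g008330 (0.092) and the gibberellin-regulated Solyc06g069790 (0.16).

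The largest differences of all lay in genes that the sources used here do not describe and that were nearly silent in one line. Solyc07g043610 was at 26.6 to 35 RPKM in HC2 early and at 0.0667 to 0.117 in RNAi-SlCLV3, a log2 difference of -4.85 (SE 0.12, limma adjusted p = 1.8e-40), with -4.74 at 4dpi and -4.20 at 6dpi. WT and fas were at 0 to 0.24 RPKM in all their libraries. Solyc07g032220 was at 48.3 to 65.5 RPKM in HC2 early and at 0.357 to 0.679 in RNAi-SlCLV3 (-5.30, SE 0.23, adjusted p = 1e-27), again with WT and fas low, at 0.362 to 3.48. In both genes the HC2 libraries stood apart from those of fas, the line from which HC2 was made.

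On the other side, Solyc04g057790 was at 5.22 to 6.93 RPKM in RNAi-SlCLV3 early, 4.73 to 7.78 at 4dpi and 2.52 to 6.88 at 6dpi. It was listed at 0 in every WT and fas library and in 11 of the 12 HC2 libraries, with 0.0953 in HC2 early replicate 4. Solyc06g068570 was at 13.1 to 22.4 RPKM in RNAi-SlCLV3 and 0.192 to 0.582 in HC2 early (log2 difference 3.64, SE 0.18, limma adjusted p = 9.5e-25), with WT at 0.38 to 0.935. In RNAi-SlCLV3 it was at 3.4 to 6.18 RPKM at 4dpi and 0.292 to 1.66 at 6dpi. Solyc01g020500 was at 14.4 to 28.2 against 0.644 to 2.5 RPKM early (3.21, SE 0.33, adjusted p = 9.2e-11), and here WT (3.85 to 12.6) and fas (6.68 to 10.8) lay between the lines.

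**Figure D4:**
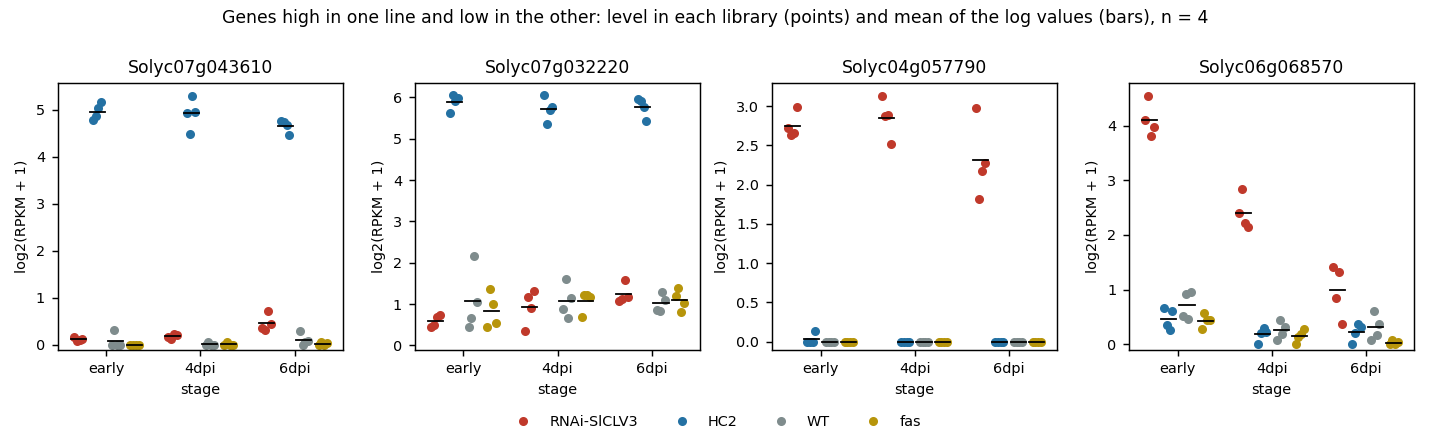
Levels of Solyc07g043610, Solyc07g032220, Solyc04g057790 and Solyc06g068570 as log2(RPKM + 1) on the vertical axis, by stage, in RNAi-SlCLV3, HC2, WT and fas, with points for libraries and bars for means of the log values (n = 4). The first pair is high in the HC2 libraries and low in the other 3 genotypes at all stages, and the other pair is high in RNAi-SlCLV3.

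Outside the fas segment, 5 genes had a mean of at least 2 RPKM in RNAi-SlCLV3 and under 0.5 in HC2 over the stages, and all 5 were called on average and under 0.5 RPKM in WT and fas. The reverse held for 31 genes, of which 12 were called. Of these 12, 6 had identifiers of chromosome 7 and 4 of chromosome 12, and 11 were under 0.5 RPKM in both WT and fas. The other 19 had their highest HC2 value in HC2 4dpi replicate 3, at 21.1 to 55.4 RPKM against at most 2.92 in the other 11 HC2 libraries, so their HC2 level comes from that library. Genes higher in HC2 on average made up 6.31% of the tested genes with chromosome 7 identifiers (93 of 1473), against 0.93% to 4.47% for the other chromosomes, the unplaced set 0 included. Within chromosome 7, 30 of the 288 tested genes whose identifiers begin with Solyc07g04 were higher in HC2 (10.4%) and 8 were higher in RNAi-SlCLV3.

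The backgrounds were set beside the lines for the genes called on average. Among those higher in RNAi-SlCLV3 the WT mean lay nearer to HC2 than to RNAi-SlCLV3 for 570 of 768 (74.2%), and the fas mean for 521 (67.8%). Among those called higher in HC2 the WT mean lay nearer to HC2 for 436 (60.9%) and the fas mean for 426 (59.5%). Over all genes compared the shares were 54.3% for WT and 53.1% for fas. By stage, for genes higher in HC2, WT was nearer to HC2 in 65.1% early, 53.9% at 4dpi and 34.1% at 6dpi, against 62.4%, 51.8% and 48.7% of all genes.

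The fas segment, kept apart here, comprises the identifiers Solyc11g071370 to Solyc11g071830. It had 47 genes, of which 35 were tested, and 5 were called early (14.3%), 6 at 4dpi (17.1%), 4 at 6dpi (11.4%) and 13 on average (37.1%), 6 higher in RNAi-SlCLV3 and 7 higher in HC2. Over all tested genes the shares were 2.45%, 2.54%, 1.14% and 7.28% in the same order. SlYABBY2b (Solyc11g071810), the YABBY gene at the second breakpoint, carried the largest difference. It was at 27.5 to 37.5 RPKM in RNAi-SlCLV3 and 2.59 to 4.05 in HC2 early, 77 to 85.7 against 2.94 to 5.29 at 4dpi, and 91.4 to 95.8 against 3.84 to 5.09 at 6dpi. HC2 matched the level of fas (4.12, 3.27 and 4.29 RPKM), and RNAi-SlCLV3 lay somewhat under WT (44, 110 and 113). For fas and lc/fas the study places nearly all SlYABBY2b reads before the breakpoint and takes these RNAs as truncated and likely non-functional. Values of fas and HC2 may thus count only part of the transcript, which was not tested here. The log2 differences of SlYABBY2b were 2.79, 3.96 and 4.18 (SE 0.17, limma adjusted p at most 7.8e-21). They grew from early to 4dpi by 1.17 (adjusted p = 0.011, lost without HC2 replicate 2 or 4 or RNAi-SlCLV3 replicate 1, 2 or 4 and at a pseudocount of 0.1, up to 0.16) and from early to 6dpi by 1.39.

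Next to SlCLV3 in identifier order, Solyc11g071370 was lower in RNAi-SlCLV3 early (30.6 RPKM on average against 53, log2 difference -0.78, SE 0.17, limma adjusted p = 0.003) and at 4dpi (29.1 against 54.9, -0.91, SE 0.17, adjusted p = 0.00037). HC2 stood above WT (30.9) and fas (21.4) in this gene. Solyc11g071600 was at 2.26 to 6.72 RPKM in RNAi-SlCLV3 and at 13.9 to 19.5 in HC2 early (-1.91, SE 0.23, adjusted p = 6.1e-09), with both lines above the 0 to 1.28 of WT and fas. Of the others, Solyc11g071790 was higher in RNAi-SlCLV3 at 4dpi (71.3 against 48.4 RPKM, 0.56, SE 0.12, adjusted p = 0.0022) and Solyc11g071460 lower (21.6 against 35, -0.67, SE 0.13, adjusted p = 0.00066). Donor sequence in this segment of HC2 can also change how many reads match the reference, and that part was not tested.

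**Figure D5:**
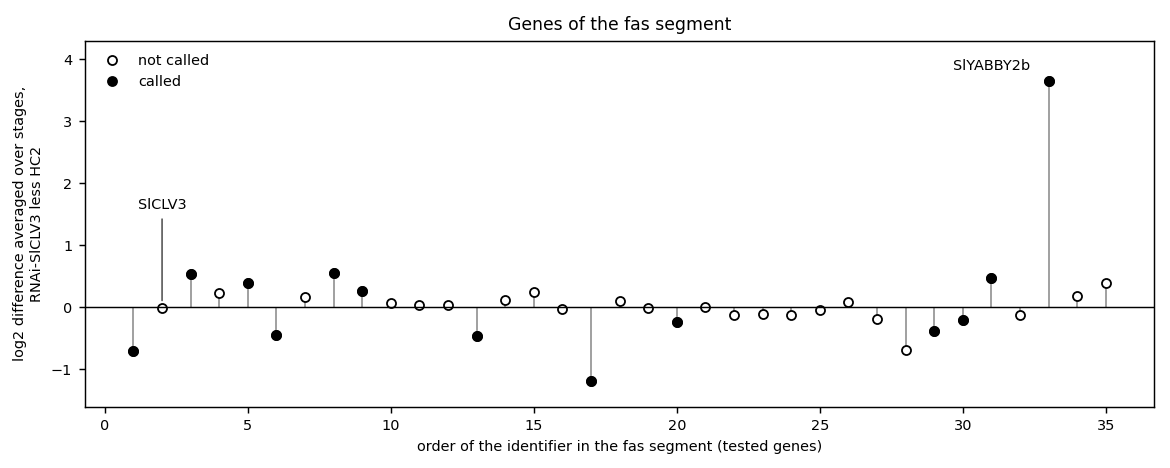
Log2 difference averaged over the stages, RNAi-SlCLV3 less HC2, on the vertical axis for the 35 tested genes of the fas segment in identifier order, with filled points for the 13 called. SlYABBY2b near the far end stands at 3.65 and SlCLV3 near the other end at -0.01.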

How the data were processed

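Per the labels and the study's methods, the authors made strand-specific whole-mRNA libraries, aligned single-end reads with TopHat2 and Bowtie2 (versions not given in the sources used here), counted reads on the sense strand of ITAG2.3 genes and deposited RPKM values. The table held 34727 genes, 5538 at 0 in every library. Read totals were recovered from the RPKM steps for depth only (values whole within 0.01 reads).

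A gene entered the test if 4 or more of the 72 libraries reached 1 RPKM (20577 genes), and log2(RPKM + 1) was used. The package limma 3.58.1 (with trend, under R 4.3.3) fitted 1 mean to each of the 18 groups, and stage, averaged and between-stage contrasts were tested two-sided. The fit was tested on simulated data. The simulated noise was independent between libraries, so that test does not cover correlated replicates or a library that stands apart. Tables and figures used Python 3.11.15. The lists and members were chosen with earlier results of these data known. Named were SlCLV3, SlWUS and SlCLE9, up to 20 passing list genes, up to 6 described genes per direction without overlap and with at least 2 RPKM in a line, at most 2 undescribed genes per direction, and up to 6 of the segment. EJ2, YABBY5a and genes that did not pass or are given only in counts by name were added after their values were seen. One list member is not reported here. Alternatives varied pseudocount, filter, scaling, libraries and replicate block.

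Replicate numbers were checked as pairs. Residuals of same-numbered RNAi-SlCLV3 and HC2 libraries correlated at 0.236 to 0.346 early and 0.17 to 0.445 at 6dpi, which pairs them, and at 0.0959 to 0.372 at 4dpi, where 1 of 4 pairs stayed under 0.1. The files hold no gene coordinates or sequences, so none are printed, and order was read from identifiers.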

Additional observations from a re-analysis of the deposited data

Results flagged for a closer look

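In 414 groups of 4 libraries, the highest or lowest library was tested for standing apart, and chance flags about 1 in 20 such groups. In HC2 the early replicate 2 stood apart for LePI (5.85 RPKM, others 0.835 to 1.68), OVATE (26.9, others 24.1 to 24.5) and Solyc11g071600 (13.9, others 18.7 to 19.5), and early replicate 4 for SlSWEET1b (9.86, others 12.6 to 12.8) and Solyc04g057790 (0.0953, others listed at 0). At 4dpi HC2 replicate 3 stood apart for OVATE (43.7, others 19.5 to 23.6) and replicate 1 for TAP3 (85.1, others 104 to 105). At 6dpi HC2 replicate 2 stood apart for Solyc01g010600 (2.39, others 1.22 to 1.41) and replicate 3 for Solyc02g092530 (1.84, others 3.46 to 3.66), and replicate 2 also in its root mean square distance from the group mean (0.224).

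In RNAi-SlCLV3 the early replicate 3 stood apart for Solyc05g014000 (4.73 RPKM, others 2.4 to 2.73) and Solyc11g071790 (108, others 81.2 to 83.7). At 4dpi replicate 1 did for SlCLV3 (2.35, others 1.29 to 1.42) and replicate 3 for Solyc11g071760 (0.576, others 0 to 0.0759). At 6dpi replicate 1 did for SlCLE9 (3.4, others 0.784 to 1.14), Solyc04g054740 (48.5, others 68.3 to 71.7), Solyc06g054640 (3.13, others 1.6 to 1.64) and Solyc11g071480 (401, others 164 to 189), and replicate 3 for Solyc07g032220 (1.98, others 1.12 to 1.26).

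The line difference changed between stages, by a test of the change itself, for the following named genes. From early to 6dpi it moved toward RNAi-SlCLV3 in SlWUS (1.61), TM5 (1.40), SlYABBY2b (1.39), AN (1.21) and TKN2 (0.88), and toward HC2 in Solyc06g068570 (-2.87), SlCLE9 (-1.73), Solyc11g072110 (-1.33) and TRM5 (-0.60). From early to 4dpi it moved in SlYABBY2b (1.17) and Solyc06g068570 (-1.43), and from 4dpi to 6dpi in Solyc06g068570 (-1.45). The early to 6dpi calls of SlWUS, TM5, TKN2, TRM5 and SlCLE9 were each lost in some alternatives, as given above. So was the early to 4dpi call of SlYABBY2b. For SlCLE9 and for that call of SlYABBY2b, a pseudocount of 0.1 was among these alternatives. The early to 6dpi call of AN held under every alternative. At a pseudocount of 0.1 none of the 3 changes of Solyc06g068570 passed (adjusted p from 0.075 to 1).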

How the results depend on the processing

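Of 147 pairs of a named gene and a comparison, 106 kept their direction and their side of the threshold under all 16 alternatives. Of 2318 values 157 fell short of the threshold and 12 changed sign. The sign changes were in values that had not passed: SlWUS early (0.01, then -0.01 without HC2 replicate 3, -0.10 without HC2 replicate 4, then -0.10 and -0.05 leaving out replicates 2 and 4 of RNAi-SlCLV3), SlCLV3 at 6dpi (0.03, then -0.06, -0.12 and -0.19 without HC2 replicate 1, HC2 replicate 4 or RNAi-SlCLV3 replicate 2, in a range of -0.19 to 0.21) and SlCLV3 on average (-0.01, then 0.06 at a pseudocount of 0.1, 0.06 without HC2 replicate 2, and 0.01, 0.03 and 0.01 without RNAi-SlCLV3 replicates 1, 3 and 4, in a range of -0.09 to 0.06). Requiring a mean of at least 5 RPKM, which leaves fewer genes, gave 250 calls early, 245 at 4dpi, 74 at 6dpi and 867 on average, and for changes of the line difference 4 (4dpi less early), 21 (6dpi less early) and 0 (6dpi less 4dpi, limma, 702 at an unadjusted p below 0.05). With no filter 356 were called at 6dpi, and 39, 73 and 10 changed between stages in that order. With only the 24 libraries in the fit, 143 were called at 6dpi, 20 changed from early to 6dpi and 0 from 4dpi to 6dpi (1124 unadjusted). A pseudocount of 0.1 gave 5, 27 and 0 changes between stages (1036 unadjusted for the last). The cause was not tested. Blocking on replicate number gave 892 calls early, 1072 at 4dpi, 483 at 6dpi and 2713 on average, and 33, 76 and 12 changes between stages, and it changed no call of a named gene. Same-numbered libraries correlated at a mean of 0.267 and others at -0.0891. The second mean is nearly fixed by the first, because residuals from a group mean cancel within the group. Leaving out 1 replicate number of a line, or HC2 4dpi replicate 3 alone (chosen after seeing the data), gave 373 to 517 calls early, 356 to 554 at 4dpi, 158 to 244 at 6dpi, 1117 to 1511 on average, and 10 to 14, 15 to 45 and 2 to 7 changes between stages. Depth limits SlCLV3 (1 to 149 reads), SlCLE9 (1 to 817) and, less, SlWUS (14 to 1032).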
